A study of Mus musculus with 8 samples.

Results

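Chchd3 and 6 other genes of the mitochondrial cristae, Chchd6, Immt, Apoo, Apool, Samm50 and Opa1, were followed in common DC progenitors (CDPs, the bone marrow cells committed to the dendritic cell lineage) of mice on 2 diets. The set was chosen on the readout itself, because Chchd3 was higher in every library of the high fat diet, and the other 6 genes were added for their function at the cristae. All 7 were among the 16119 genes of the count table and all 7 passed the filter on low counts, which kept 15837 genes. The animals were male C57BL/6J mice, bought at 16 weeks of age according to the methods. The HFD group received a diet with 60 kcal% fat and is labelled DIO, with 16 weeks on the diet given in place of an age. The CF group received 10 kcal% fat and is labelled DIO-Control, matched for age and diet, with no number of weeks in its labels. Each group had 4 libraries from CDPs sorted as lineage-negative cells with intermediate c-Kit and low Sca-1 that were positive for CD115 and Flt3. The study describes the replicates as independent, and whether a replicate pooled animals was not given in the sources used here, so p-values measure the spread between these libraries.

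Cristae are the folds of the inner mitochondrial membrane that hold the respiratory chain, and each fold opens through a narrow neck, the crista junction. The MICOS complex builds these junctions. Immt (MIC60) is its core and bends the membrane, Chchd3 (MIC19) and Chchd6 (MIC25) are related coiled-coil-helix proteins bound to Immt, and Apoo (MIC26) and Apool (MIC27) are apolipoprotein O family members of the other subcomplex. Samm50, the pore of the outer membrane sorting and assembly machinery, is tethered to MICOS through Chchd3, and Opa1 is the dynamin-like GTPase that fuses inner membranes and narrows crista junctions.

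On GRCm38 with the GENCODE vM21 annotation, 3 members lay on chromosome 6. Chchd3 (ENSMUSG00000053768) spanned chr6:32790976-33060260 on the minus strand, Chchd6 (ENSMUSG00000030086) chr6:89383146-89595652 on the minus strand and Immt (ENSMUSG00000052337) chr6:71831331-71877388 on the plus strand. Apoo (ENSMUSG00000079508, chrX:94367117-94417093) and Apool (ENSMUSG00000025525, chrX:112311334-112372755) were both X-linked and on the plus strand. Samm50 (ENSMUSG00000022437) spanned chr15:84192241-84217267 and Opa1 (ENSMUSG00000038084) chr16:29579334-29654884, both on the plus strand. The Chchd3 locus contains 2 other counted genes, the antisense gene Gm14540 and Gm42895 on the same strand, and neither shared an exonic base with Chchd3. The strand setting of the counting was not given in the sources used here.

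The related genes Chchd3 and Chchd6 are shown with the 250 bases before their RefSeq start sites (GRCm38.p6, 5′ to 3′ on the gene's own strand), since a letter pattern occurred in these and in no other member. The Chchd3 stretch is chr6:33060261-33060510 and the Chchd6 stretch is chr6:89595653-89595902, both read on the minus strand. Capitals mark ACTACA followed by any 2 bases and TCCCA.

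Chchd3: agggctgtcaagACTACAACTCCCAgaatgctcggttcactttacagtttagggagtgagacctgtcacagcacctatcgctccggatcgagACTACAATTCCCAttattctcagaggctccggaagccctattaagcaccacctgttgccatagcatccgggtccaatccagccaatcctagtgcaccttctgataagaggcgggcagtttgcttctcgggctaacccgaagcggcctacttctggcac

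Chchd6: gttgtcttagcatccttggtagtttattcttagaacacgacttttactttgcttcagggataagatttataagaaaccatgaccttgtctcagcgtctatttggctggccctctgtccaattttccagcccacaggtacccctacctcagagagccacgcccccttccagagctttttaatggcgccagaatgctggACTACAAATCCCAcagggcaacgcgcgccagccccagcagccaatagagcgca

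The pattern occurred in 2 copies in Chchd3, starting 238 and 158 bases before the start site, and in 1 copy in Chchd6, starting 53 bases before it. All 3 copies were in the forward orientation. It was chosen after the sequences had been read, and a search of both strands found it in 1.35% of 32851 mouse promoter stretches of the same length. CCAAT was present in 6 of the 7 members (all but Apoo) against 33.8% of all stretches, CCGGAAG in Chchd3 and Immt (6.91% of all) and CGCATGCG in Opa1 alone (1.55% of all). Members were counted as genes, and the shares of all as stretches, without a filter on expression. No enrichment is read from these shares. These are matches of letters, and no binding was measured.

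Total counts were between 28203651 and 48409689 per library, and levels are given in CPM, the read count of a gene relative to the depth of its library, after TMM scaling. Between the diets, 67 of 15837 genes passed an adjusted p of 0.05 (edgeR quasi-likelihood test, Benjamini-Hochberg), all of them lower in HFD. This was 0.423% of the genes tested, and none of the other 6 members was among them. The count was 200 without HFD replicate 1 (34 higher and 166 lower) and 154 without CF replicate 4 (all lower), and lay between 0 and 2 when any other library was left out. The median log2 fold change over all genes was 0.05, and 59.7% of all genes lay above 0. Of the genes of the sort gate, Flt3 had 88.8 to 378 CPM in HFD and 228 to 316 CPM in CF, Csf1r (CD115) had 79.4 to 112 and 101 to 133 CPM, and Kit had 34.2 to 53.6 and 40.3 to 52.5 CPM. These 3 genes and Cd34, Csf2ra and Irf8, which are known in CDPs and are not in the gate as given above, were listed as CDP markers. All 6 were present in all libraries, and 1 of them had a log2 fold change above 0 (median -0.21). HFD replicate 1 stood apart: the 12 neutrophil genes summed to 20470 CPM there, against 961 to 3584 CPM in the other HFD libraries and 1956 to 6585 CPM in CF, and its 6 CDP markers, of which Irf8 was the most abundant, summed to 571 CPM, against 894 to 1217 CPM in the other 7 libraries. Results on the members are therefore also given without it.

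Chchd3, the MICOS subunit that links Immt to the outer membrane, was the member whose diet groups lay apart. Its level was 17.9, 19.8, 19.5 and 19.5 CPM in HFD replicates 1 to 4 and 13.9, 14.6, 13.9 and 12.8 CPM in CF replicates 1 to 4. The lowest HFD library, at 17.9 CPM, lay above the highest CF library, at 14.6 CPM, as the choice of the gene required. The means were 19.2 ± 0.845 CPM in HFD and 13.8 ± 0.725 CPM in CF (SD, n = 4), a 1.39-fold level with a log2 fold change of 0.48 ± 0.09 (SE). Every HFD library exceeded every CF library in 2.58% of all genes tested, and since this pattern chose Chchd3, no test is given for it. Leaving out HFD replicate 1 gave a log2 fold change of 0.51, and leaving out any single library gave 0.43 to 0.51. The CV was 4.41% in HFD and 5.26% in CF, beside 3.83% and 4.55% from counting error alone at mean counts of 683 and 482. The choice of the gene favours a small spread within each diet, so nothing is read from it. In RNA from sorted cells as a whole, a change in the mix of cells and a change in RNA per cell cannot be told apart.

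Markers of other cells were measured in the same libraries, and none of them passed the edgeR test between the diets. Over all genes, an unadjusted p under 0.05 was reached on the higher side by 3.22%. All 7 plasmacytoid DC genes had a log2 fold change above 0, with a median of 1.22 and 5 at an unadjusted p under 0.05. Their sum was 347 CPM in HFD replicate 1, 591 to 804 CPM in the other HFD libraries and 442 to 506 CPM in CF. The HFD libraries other than replicate 1 thus lay above every CF library. Runx2, the most abundant of these genes, had 151 to 430.1 CPM in HFD and 218 to 263 CPM in CF. All 8 B cell genes were above 0, with a median of 0.78 and 5 at an unadjusted p under 0.05, and summed to 452 to 1282 CPM in HFD and 302 to 531 CPM in CF, of which Ighm gave 387 to 728 and 261 to 412 CPM. All 10 erythroid genes were above 0, with a median of 0.85 and 2 at an unadjusted p under 0.05, and summed to 314 to 901 CPM in HFD and 256.5 to 320 CPM in CF, of which the transferrin receptor Tfrc gave 203 to 257 and 137 to 173 CPM. Of the neutrophil genes 11 of 12 were above 0 (median 0.30), led by S100a9 at 283 to 5110 CPM in HFD and 496 to 1915 CPM in CF, and of the monocyte genes 3 of 8 (median -0.09), led by F13a1 at 71.1 to 197 and 162 to 218 CPM. The 6 lineage genes tested that the sort excludes were above 0 as well (median 0.84), 3 of them at an unadjusted p under 0.05. Ly6g led them at 2.23 to 40.2 CPM in HFD and 5.19 to 13.1 CPM in CF. Lineage genes summed to 64.4 CPM in HFD replicate 1, 11.5 to 17.2 in the other HFD libraries and 12.4 to 20.1 in CF. A high sum was thus seen in HFD replicate 1 alone. None of the markers was at 0 in all libraries. HFD replicate 1 had the highest neutrophil sum of HFD and CF replicate 1 the lowest of CF. Without both, the log2 fold change of Chchd3 was 0.51. In the remaining libraries the neutrophil sums were 961 to 3584 CPM in HFD and 5979 to 6585 CPM in CF. The plasmacytoid DC sums were 591 to 804 and 442 to 506 CPM, and the B cell sums 452 to 626 and 302 to 433 CPM. The erythroid sums were 314 to 402 and 256.5 to 320 CPM, and the monocyte sums 188 to 495.5 and 415.5 to 562 CPM. The sums of the lineage genes were 11.5 to 17.2 and 15.1 to 20.1 CPM. The part of these cells in the difference was not tested.

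**Figure D1:**
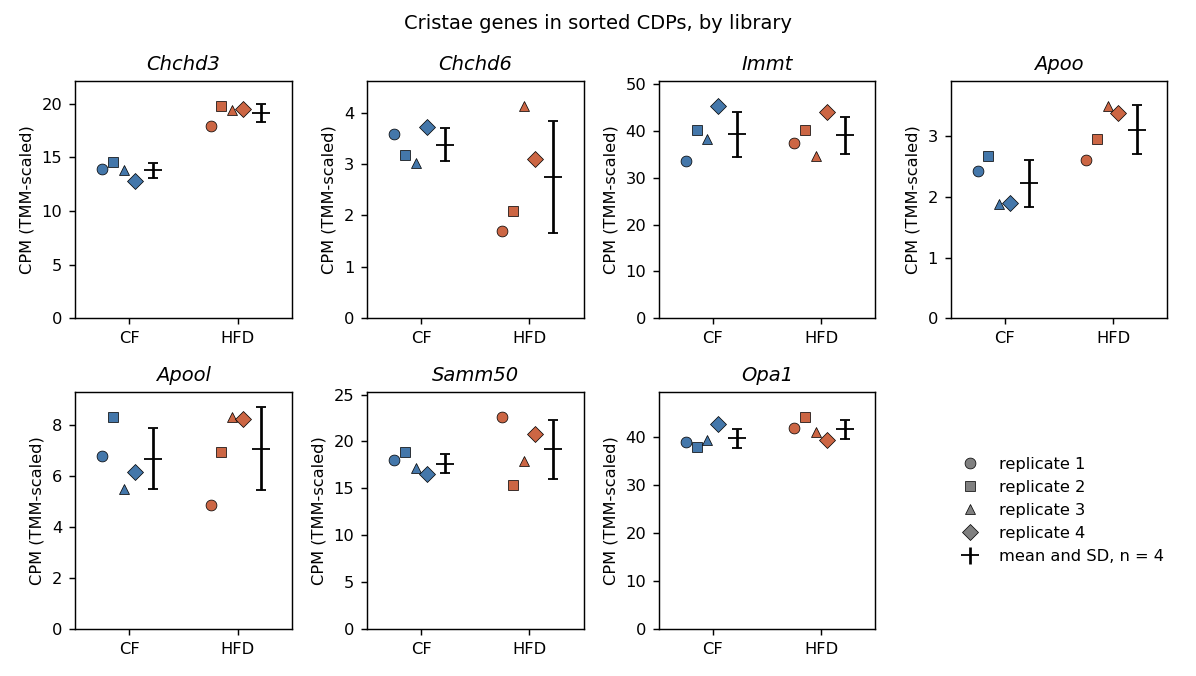
Level of each of the 7 genes in CPM (linear axes from 0) in the 4 CF and 4 HFD libraries, with point shapes for replicate numbers, which do not pair the diets, and bars for mean and SD. The 4 HFD libraries of Chchd3 sit between 17.9 and 19.8 CPM and the CF libraries between 12.8 and 14.6 CPM, while the groups of the other 6 genes overlap.

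The other counted genes inside the Chchd3 locus had low levels. Gm14540, annotated on the opposite strand, had 1.66 ± 0.992 CPM in HFD and 1.80 ± 0.899 CPM in CF. Gm42895, on the same strand, had 0.936 ± 0.294 CPM in HFD and 2.25 ± 2.23 CPM in CF, where a single library reached 5.41 CPM. Both had groups that overlapped, where every HFD library exceeded every CF library in 2.58% of all genes tested. Their log2 fold changes, -0.13 ± 0.63 for Gm14540 and -1.27 ± 0.67 for Gm42895 (SE), were too uncertain to show a difference of the size seen in Chchd3. Nothing is therefore read from the overlap.

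Chchd6, the closest relative of Chchd3 in the complex, was at 1.70, 2.08, 4.12 and 3.11 CPM in HFD and at 3.59, 3.18, 3.02 and 3.72 CPM in CF. HFD replicates 1 and 2 were below all CF libraries, and HFD replicate 3 was above them all. The difference, a log2 fold change of -0.29 ± 0.28 (SE), did not pass the edgeR test (adjusted p = 0.870). It was -0.12 without HFD replicate 1, -0.18 without HFD replicate 2 and -0.55 without HFD replicate 3. The spread in HFD, a CV of 39.6%, was wide beside the 9.95% expected from counting error at a mean of 101 counts, whereas the CF libraries, with a CV of 9.75%, were near their counting error of 9.15%.

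Immt, the MICOS core, was at 37.5, 40.3, 34.6 and 44.1 CPM in HFD and at 33.7, 40.2, 38.4 and 45.3 CPM in CF. The groups covered nearly the same range, with means of 39.1 ± 4.03 and 39.4 ± 4.80 CPM (SD, n = 4) and a log2 fold change of -0.01 ± 0.12 (SE, edgeR adjusted p = 0.994). Without HFD replicate 1 it was 0.01, so the sign was not stable. In the longest coding transcript of Immt, 5.43% of 75-base windows, the read length, also occurred in transcripts of other genes.

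Apoo was at 2.60, 2.96, 3.49 and 3.37 CPM in HFD and at 2.43, 2.67, 1.89 and 1.90 CPM in CF. Only the lowest HFD library and the highest CF library crossed. Its log2 fold change of 0.48 ± 0.20 (SE) was close in size to that of Chchd3, and it did not pass the edgeR test (unadjusted p = 0.0395, adjusted p = 0.531). An unadjusted p under 0.05 was reached on the higher side by 3.22% of all genes and on the lower side by 5.34%, and Apoo was the single one of the 6 other members to reach it. Its mean of 112 counts in HFD and 77.8 in CF carried a counting error of 9.46% and 11.3%. Without HFD replicate 1 its log2 fold change was 0.56, and leaving out any single library gave 0.40 to 0.58. Of the 75-base windows of its longest coding transcript, 44.8% also occurred in the pseudogene Apoo-ps, and how many read pairs could not be placed between them was not measured. Apoo-ps itself had 1.26 ± 0.122 CPM in HFD and 1.28 ± 0.653 CPM in CF.

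Apool, the relative of Apoo that binds cardiolipin, the lipid of the inner membrane, was at 4.85, 6.92, 8.29 and 8.23 CPM in HFD and at 6.77, 8.30, 5.48 and 6.16 CPM in CF. HFD replicate 1 was the lowest of all 8 libraries and CF replicate 2 the highest. The log2 fold change was 0.08 ± 0.21 (SE, edgeR adjusted p = 0.965), and 0.23 without HFD replicate 1, 0.21 without CF replicate 2 and -0.035 without HFD replicate 4. In the longest coding transcripts of Chchd3, Chchd6, Apool and Opa1, no 75-base window was shared with another gene.

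Samm50, the outer membrane partner, was at 22.6, 15.4, 17.9 and 20.8 CPM in HFD and at 18.0, 18.8, 17.1 and 16.5 CPM in CF. The HFD libraries held both the highest and the lowest value. Their CV was 16.6% against 5.81% in CF, with counting errors of 3.83% and 4.03%. The log2 fold change was 0.12 ± 0.14 (SE, edgeR adjusted p = 0.894), with 0.03 without HFD replicate 1, the highest library, 0.04 without HFD replicate 4 and 0.21 without HFD replicate 2, the lowest.

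Opa1, the fusion GTPase, was at 42.0, 44.2, 41.1 and 39.4 CPM in HFD and at 39.1, 38.0, 39.6 and 42.7 CPM in CF. The ranges overlapped over most of their width, and the CV was 4.85% in HFD and 5.09% in CF. The log2 fold change of Opa1 was 0.06 ± 0.09 (SE, edgeR adjusted p = 0.923), and 0.06 also without HFD replicate 1. With single libraries left out it ran from 0.03 (HFD replicate 2) to 0.10 (CF replicate 4). DESeq2 and limma voom also called 0 of the 6 other members, where they called 3.60% and 0.442% of all genes with a p.

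**Figure D2:**
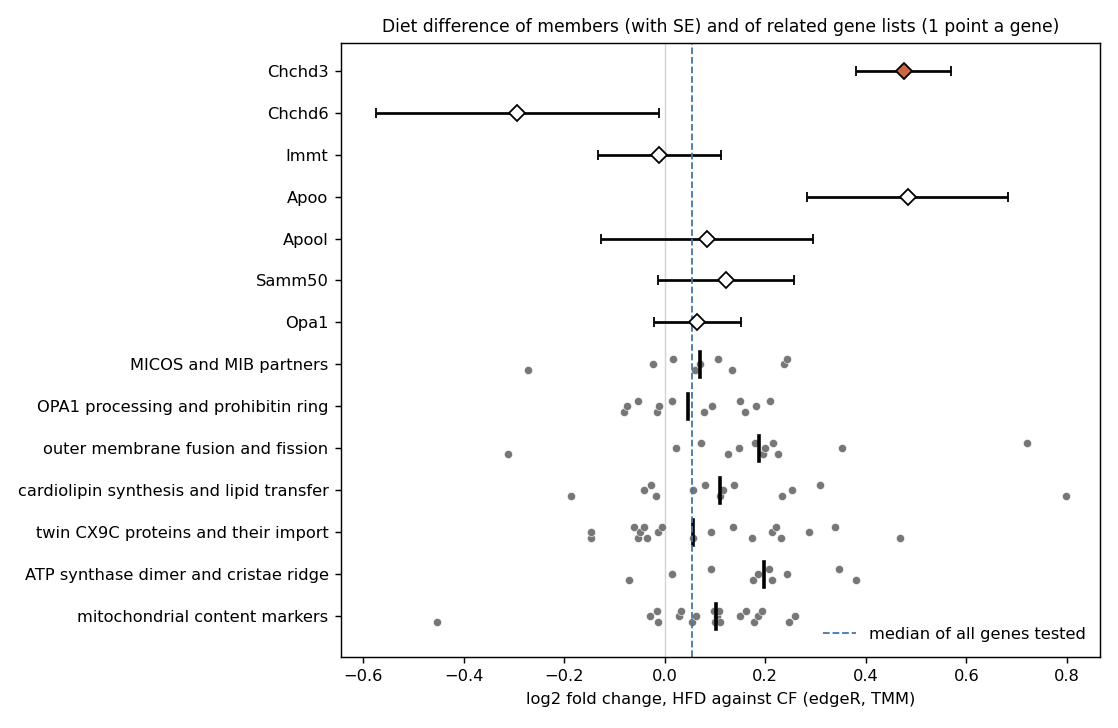
The log2 fold change of HFD against CF, with diamonds and SE bars for the 7 members (Chchd3 filled), grey points for the genes of 7 related lists, black bars for list medians and a dashed line for the median of all genes tested. Chchd3 and Apoo sit at 0.48, Chchd6 at -0.29 and the other 4 members between -0.01 and 0.12, and 2 of the 95 list genes lie beyond Chchd3.

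Within a library, the ratio of 2 genes' counts does not depend on any scaling between libraries. Chchd3 had 0.478, 0.490, 0.563 and 0.443 counts for each count of Immt in HFD, and 0.413, 0.363, 0.361 and 0.283 in CF, so the groups lay apart. Against Opa1 the ratio was 0.427 to 0.495 in HFD and 0.300 to 0.384 in CF, again apart. Against Chchd6 it was 4.73 to 10.5 in HFD and 3.45 to 4.58 in CF. Against Samm50 the ratios, 0.793 to 1.29 in HFD and 0.773 to 0.809 in CF, met at HFD replicate 1. Against Apool they overlapped, at 2.35 to 3.70 and 1.76 to 2.53. Against Apoo they covered nearly the same range, 5.58 to 6.89 in HFD and 5.45 to 7.33 in CF. These ratios carry the diet difference that chose Chchd3, and are given as a description.

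The members were also set against mitochondrial content, taken as the mean log2 CPM of 20 genes of general mitochondrial function, such as the import receptor Tomm20, the outer membrane channel Vdac1 and citrate synthase (Cs). This mean was 4.84 ± 0.10 in HFD and 4.77 ± 0.04 in CF (SD, n = 4). Relative to it, Chchd3 was at -0.64, -0.44, -0.53 and -0.68 in HFD and at -0.99, -0.93, -0.97 and -1.02 in CF. The difference between the diets was 0.40 on this log2 scale, and 0.42 without HFD replicate 1. The groups lay apart, which the choice of Chchd3 largely fixed, since the mean of the content genes differed by 0.07, and no support is drawn from it. Apoo differed by 0.41 with groups that overlapped, and by 0.34 to 0.49 with any library left out. Chchd6 differed by -0.44 with groups that overlapped, by -0.25 without HFD replicate 1 and by -0.66 without HFD replicate 3. Immt, Apool, Samm50 and Opa1 differed by -0.08, -0.0045, 0.04 and -0.01, each with overlapping groups. Without HFD replicate 1 these were -0.07, 0.16, -0.06 and -0.02, and with any library left out each of the 4 took both signs.

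**Figure D3:**
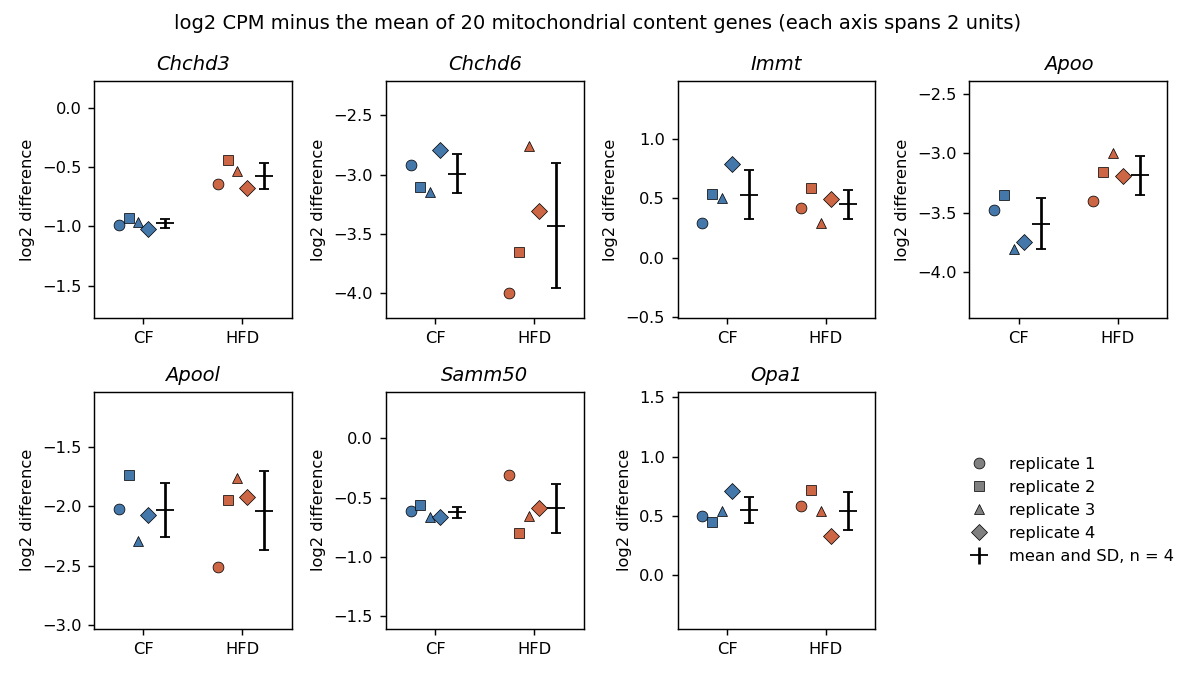
Level of each member as log2 CPM minus the mean log2 CPM of 20 mitochondrial content genes in the same library, with point shapes for replicate numbers, bars for mean and SD (n = 4 a diet) and axes that each span 2 log2 units. For Chchd3 the HFD libraries lie between -0.68 and -0.44 and the CF libraries between -1.02 and -0.93, and for the other 6 genes the groups overlap.

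Levels of different genes were compared per length, as CPM per kb of all annotated exons joined. Over the 8 libraries the order was Chchd3 at 5.67 ± 1.02, Opa1 at 5.17 ± 0.27, Immt at 3.46 ± 0.36, Samm50 at 2.80 ± 0.36, Apoo at 2.12 ± 0.48, Apool at 1.97 ± 0.38 and Chchd6 at 1.21 ± 0.32 CPM per kb (SD, n = 8). Opa1 and Immt were the only neighbours whose libraries did not overlap. Chchd3 stood at 6.60 ± 0.291 CPM per kb in HFD and 4.75 ± 0.250 in CF, on either side of the Opa1 mean. The order depended on the length used. Divided by the longest coding transcript, Immt came first at 14.4 ± 1.51, followed by Chchd3 at 10.6 ± 1.91, Opa1 at 6.54 ± 0.34, Apool at 5.06 ± 0.98, Samm50 at 3.97 ± 0.51, Chchd6 at 2.73 ± 0.73 and Apoo at 2.19 ± 0.49 CPM per kb, and only Chchd3 and Opa1 were neighbours without overlap. Chchd6 was below Chchd3 in every library by either length.

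**Figure D4:**
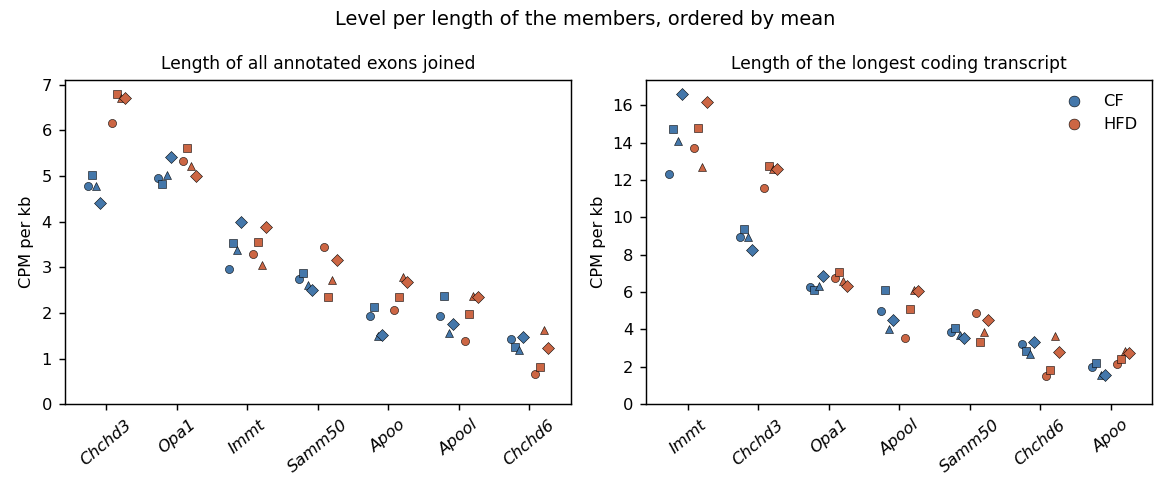
CPM per kb of each member in each of the 8 libraries (CF in blue, HFD in orange, shapes for replicates), with genes ordered by their mean, for all annotated exons joined on the left and the longest coding transcript on the right. Chchd3 is first at 5.67 CPM per kb on the left and second at 10.6 on the right, where Immt leads at 14.4.

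The variation between libraries of 1 diet was compared between members. With diet means removed, Apoo and Apool moved most alike (Pearson r = 0.91 over 8 libraries, 0.87 to 0.95 with any library left out). Both were lowest within HFD in replicate 1 and highest within CF in replicate 2. Chchd3 had r = 0.77 with Apoo and 0.73 with Apool (0.66 to 0.89 and 0.49 to 0.88 with any library left out). These rest on small deviations of Chchd3, from -0.10 to 0.08 log2 units. Its CV in HFD and CF (4.41% and 5.26%) was near its counting error (3.83% and 4.55%). Chchd6 had r = 0.71 with Apool (0.39 to 0.87 with any library left out) and 0.56 with Apoo (0.33 to 0.76). Immt had r between -0.25 and 0.26 with every other member, values that turned on single libraries: with any library left out, its r with Opa1 ran from -0.26 to 0.72 and with Chchd6 from -0.30 to 0.49. Opa1 had a negative r with Apoo (-0.67, from -0.78 to -0.56 with any library left out), Samm50 (-0.63, from -0.90 to -0.35) and Chchd3 (-0.54, from -0.92 to -0.13). These correlations come from 8 libraries, within each of which all members share 1 depth and 1 sort, and are descriptions without a test.

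**Figure D5:**
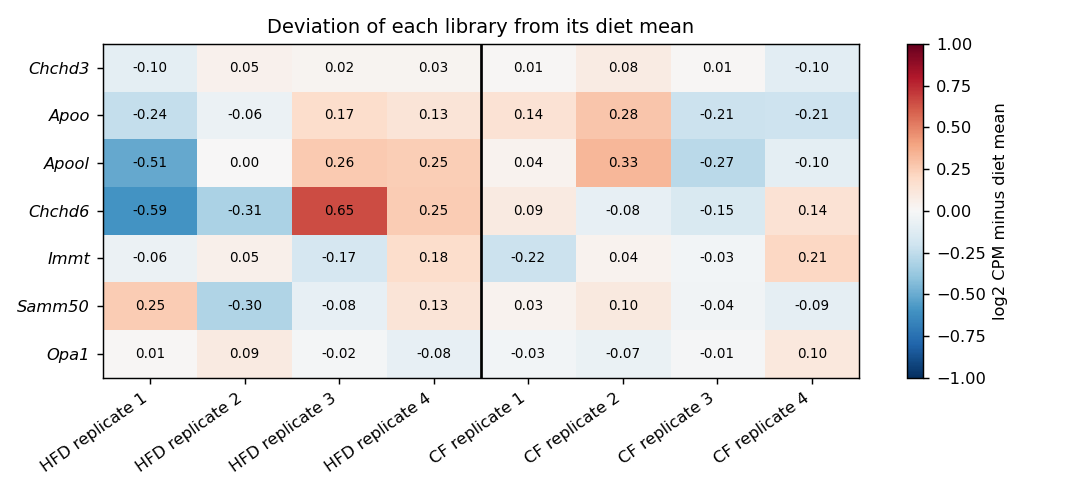
Deviation of each library's log2 CPM from the mean of its diet, for the 7 members in rows and the 8 libraries in columns (HFD left, CF right), printed in each cell. Apool and Chchd6 fall to -0.51 and -0.59 in HFD replicate 1, whereas Chchd3 stays between -0.10 and 0.08 in every library.

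Among 7995 other genes with a mean log2 CPM of at least 3, the genes most like Chchd3 over all 8 libraries were Rars, the cytosolic arginyl-tRNA synthetase (Pearson r = 0.96), Dtnbp1, a subunit of the lysosome biogenesis complex BLOC-1 (0.95), the clamp loader subunits of DNA replication Rfc3 (0.95) and Rfc4 (0.945), and Pik3ap1, a PI3K adaptor of B cells (0.94). In all 5 every HFD library exceeded every CF library, which likeness to Chchd3 favours. Rfc4 had 14.2 ± 1.1 CPM in HFD and 10.2 ± 0.545 CPM in CF, and Pik3ap1 41.2 ± 2.11 and 30.6 ± 1.47 CPM (SD, n = 4). With diet means removed, the closest genes were Adss (0.96), an enzyme of AMP synthesis, Sfmbt1 (0.95), Rbm15b (0.95), B3gnt8 (0.95) and Sema4b (0.94). A correlation of at least 0.9 was reached by 20 genes in the first case and by 30 in the second. The choice of genes was unstable, as between 0 and 3 of the first 5 recurred when a single library was left out.

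The wider cristae machinery was described with 7 lists, of which 95 of 97 genes were tested. Of these, 69 had log2 fold changes above 0 and 26 below, a share to be read beside the 59.7% of all genes above 0, with a median of 0.11 beside 0.05 over all genes and 0.07 over protein-coding genes. None was called by edgeR, DESeq2 or limma voom, which called 0.423%, 3.60% and 0.442% of all genes. At the shares of edgeR and limma voom fewer than 1 call among 95 genes would be at the background, and at the share of DESeq2 a few. No set test was run, so nothing is read from the absence of calls. At an unadjusted p under 0.05 there were 3 of the 95 on the higher and 1 on the lower side, where 3.22% and 5.34% of all genes lay. A log2 fold change beyond that of Chchd3 was seen in 2 genes, Mul1 and Cds2, neither of which passed the test. The list medians depended on single libraries. With 1 library left out, the median ran from 0.06 (HFD replicate 4) to 0.28 (HFD replicate 2) for the ATP synthase list, from -0.01 (HFD replicate 4) to 0.13 (CF replicate 2) for the proteins with paired cysteine motifs, from -0.02 (HFD replicate 4) to 0.13 (HFD replicate 2) for the content list, from 0.06 (HFD replicate 4) to 0.15 (HFD replicate 3) for the cardiolipin list and from 0.01 (HFD replicate 4) to 0.09 (CF replicate 1) for the Opa1 processing list. The median of all genes was 0.02 without HFD replicate 4.

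The partners of MICOS showed no call. The other subunits Micos10 (listed as Minos1) and Micos13 (listed as 2410015M20Rik) had log2 fold changes of -0.02 and 0.06, and the outer membrane partners Mtx1, Mtx2 and Mtx3 had 0.07, 0.24 and -0.27. The lowest adjusted p in this list of 9 was 0.804 (edgeR), its median was 0.07, and 7 genes lay above 0. With single libraries left out that median ran from -0.05 (HFD replicate 4) to 0.13 (HFD replicate 2).

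Opa1 is cut by the proteases Oma1 and Yme1l1 and kept in place by the prohibitins. Of these 12 genes 7 were above 0 and 5 below, with a median of 0.05, close to that of all genes. Yme1l1, with the lowest p, was at 61.1 ± 5.76 CPM in HFD and 55.2 ± 1.69 CPM in CF (SD, n = 4; edgeR adjusted p = 0.782), and Afg3l1 had a log2 fold change of 0.21. Oma1, Phb and Phb2 had log2 fold changes of 0.08, 0.18 and 0.01.

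Of 12 genes of outer membrane fusion and fission, 11 were above 0, with a median of 0.19 that became 0.08 without HFD replicate 1. Each HFD library exceeded each CF library in 1 of the 12 genes, Mff, as in 2.58% of all genes tested, so nothing is read from it. Mff, the receptor that recruits the fission GTPase Drp1, was at 28.2 ± 4.80 CPM in HFD and 22.1 ± 1.35 CPM in CF. Its lowest HFD library, at 23.7 CPM, lay just above its highest CF library, at 23.4 CPM. Its log2 fold change of 0.35 ± 0.13 (SE) had an unadjusted p of 0.0270 and did not pass adjustment (edgeR adjusted p = 0.442). Mul1, a ligase of the outer membrane, had a log2 fold change of 0.72 ± 0.37 (SE), with 6.15 ± 0.710 CPM in HFD against 3.72 ± 2.10 CPM in CF (edgeR adjusted p = 0.694). The mitofusins Mfn1 and Mfn2 had 0.20 and 0.22, and Dnm1l, which encodes Drp1, had 0.02.

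Cardiolipin synthesis and lipid transfer genes were above 0 in 9 of 13, with a median of 0.11. Prelid3b, a lipid transfer protein, was at 15.8 ± 2.02 CPM in HFD and 13.2 ± 1.36 CPM in CF (edgeR adjusted p = 0.712), and Ptpmt1, the phosphatase of cardiolipin synthesis, had a log2 fold change of 0.23. Cardiolipin synthase (Crls1) and tafazzin (Taz) had 0.06 and -0.03. Cds2 had the highest value of the list, 0.80 ± 0.52 (SE, edgeR adjusted p = 0.793).

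Chchd3 and Chchd6 belong to a family of small proteins with paired cysteine motifs, many of which are folded in the intermembrane space by Chchd4 and Gfer. Of 19 other genes of this family and its import, 10 were above 0 and 9 below, with a median of 0.06. Chchd4 and Gfer had log2 fold changes of -0.05 and -0.04. Cmc4, with the lowest p, was at 2.42 ± 0.631 CPM in HFD and 1.75 ± 0.215 CPM in CF (edgeR adjusted p = 0.688), and Aifm1, the partner of Chchd4, had a log2 fold change of 0.21.

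ATP synthase dimers form the curved edges of the cristae. Of 10 genes for their subunits and regulators 9 were above 0, with a median of 0.20. Atp5mpl, a small subunit, was at 20.6 ± 3.47 CPM in HFD and 15.9 ± 2.50 CPM in CF, and Atpif1, the inhibitor of the synthase, at 32.7 ± 6.01 and 25.7 ± 3.16 CPM (SD, n = 4). Both reached an unadjusted p under 0.05 (0.0393 and 0.0473) and neither passed adjustment (edgeR adjusted p = 0.529 and 0.575).

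In the mitochondrial content list, 16 of 20 were above 0, with a median of 0.10. Its lowest p belonged to Nrf1, a transcription factor of nuclear-encoded mitochondrial genes, at 17.1 ± 3.62 CPM in HFD and 23.3 ± 3.70 CPM in CF, the single list gene on the lower side at an unadjusted p under 0.05 (log2 fold change -0.45, edgeR adjusted p = 0.506). Tfam, which packages mitochondrial DNA, was at 16.4 ± 1.72 and 13.8 ± 0.877 CPM (edgeR adjusted p = 0.615).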

How the data were processed

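RNA of sorted CDPs was analysed in 8 libraries, 4 HFD and 4 CF, grouped by the labels. The counts per gene, whole numbers, were used as the authors deposited them. By the study's methods, total RNA was made into libraries with a ribosomal depletion kit, sequenced as paired reads, aligned with HISAT2 and counted with StringTie over GENCODE genes from uniquely mapped pairs. The submitters' processing notes name cutadapt, FastQC and GRCm38. Versions and the strand setting are not given in the sources used here. Pairs that map to several places are not counted, which could lower genes with near copies, and no file used here measures that loss. All 8 count columns were matched to samples by their number endings.

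Gene symbols, positions and exons came from GENCODE vM21 through the Ensembl identifiers. The diets were compared with edgeR 4.0.16 (R 4.3.3), using filterByExpr, TMM, and a robust quasi-likelihood fit with diet as the only term, with Benjamini-Hochberg adjustment over all 15837 genes tested and a threshold of 0.05. Log2 CPM used a prior count of 2. The fit was tested on simulated data. DESeq2 1.42.0 and limma 3.58.1 (voom), other scalings, other filters, a replicate block and leaving out each library were alternatives. Figures were drawn with matplotlib 3.10.9.

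The members and lists were chosen with earlier results of these data known. Named were the 7 members, the 2 genes of lowest p in each list, called list genes (there were 0), the 5 genes most correlated with Chchd3 in each of 2 ways, CDP markers and the highest marker of each list. Other genes named in the text, among them the highest values, the genes at the Chchd3 locus and central genes of a list, were chosen after values were seen. The numbers shared by HFD and CF replicates are not tied to shared animals or days in the sources. Promoter sequences came from RefSeq (GRCm38.p6) by gene symbol, which matched all 7 members. Of the list symbols, Misato1 was unmatched, and Gdap1 and the lineage marker Ncr1 were not among the counted genes. The counting error, where given, was the inverse square root of the gene's mean count in that diet, as a percentage.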

Additional observations from a re-analysis of the deposited data

Results flagged for a closer look

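In 6 of 42 groups of 4 libraries, a single library lay further from the rest than Dixon's limit allows, which chance reaches in about 1 in 20 groups. The groups reuse the same libraries and are not independent, so no excess over chance is read from this count. Chchd3 was at 4.17 log2 CPM in HFD replicate 1, below the 4.29 to 4.31 of the other HFD libraries and still above all CF libraries. The same library held the highest sum of the lineage genes excluded by the sort (64.4 CPM, others of HFD 11.5 to 17.2), of the neutrophil genes (20470 CPM, others 961 to 3584) and of the erythroid genes (901 CPM, others 314 to 402). Among CF libraries, replicate 1 had a low neutrophil sum (1956 CPM, others 5979 to 6585) and replicate 2 a high plasmacytoid DC sum (505.9 CPM, others 442 to 451).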

How the results depend on the processing

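The log2 fold change of Chchd3 was 0.43 to 0.68 over 17 alternatives. Its direction was fixed by the choice of the gene and says nothing about stability. The highest, 0.68, came with scaling by library size alone, which moved the median of all genes to 0.25, and minus the median of all genes the range was 0.38 to 0.48. None of the 6 other members and no list gene was called in any alternative. Immt changed sign with library size alone (0.16) and with single libraries left out (-0.11 to 0.064), and Apool with single libraries left out (-0.035 to 0.23). Samm50 ranged from 0.03 to 0.31 and Opa1 from 0.02 to 0.25. Chchd6 stayed below 0 (-0.55 to -0.09) and Apoo above 0 (0.40 to 0.70), with edgeR, DESeq2 or voom adjusted p from 0.603 to 0.999 and from 0.270 to 0.999.

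The 67 calls over all genes became 108 with library size alone (10 higher and 98 lower), 0 among protein-coding genes alone, 567 with DESeq2 (64 higher and 503 lower) and 388 without HFD replicate 1 and CF replicate 1 (chosen after seeing the data), and ranged from 0 to 200 with 1 library left out. With the replicate number as a block there were 0 calls, and the log2 fold change of Chchd3 was 0.48. Same-numbered libraries did not deviate together (correlations -0.44, -0.08, -0.23 and -0.18), and 0 of 4 HFD libraries correlated best with its own number, so the numbers were not taken to pair the samples. The rank of Chchd3 by level fell from 1 to 2 with the longest transcript. Of the 5 genes most like Chchd3, 0 recurred with Spearman's rho, 2 with library size alone and 0 to 3 with 1 library left out. With diet means removed, 0 recurred with rho, 0 with library size alone and 0 to 2 with 1 library left out. The cause of these shifts was not tested. Counting error was near 10% for Apoo and Chchd6, and for Chchd6 in HFD the spread between libraries (39.6%) was wider.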
